A study of Mus musculus with 6 samples.

Results

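The transcripts described here are those of 10 cardiac potassium channel genes in cultured mouse heart cells. They were taken as the rows of the deposited table whose Ensembl identifier carries 1 of 10 chosen symbols in the GENCODE M21 annotation of GRCm38, the genome that mm10 also names. All 10 were found among 54532 genes listed. They are Kcnq1 and its accessory subunit Kcne1, Kcnh2, the inward rectifiers Kcnj2, Kcnj3, Kcnj5 and Kcnj11, and the transient outward channel genes Kcnd2, Kcnd3 and Kcnip2.

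Primary cardiomyocytes were grown from the hearts of newborn mice that carry a Rit1 locus engineered to express the variant M90I once Cre has acted on it. RIT1 is a small GTPase of the RAS family. On day 3 after isolation the cultures received an adenovirus encoding GFP (AdGFP, the control) or GFP-Cre (AdCre). RNA was taken later, several days after the virus was added. Each group held 3 samples, labeled Biol Rep 1 to 3, and the labels give the genotype as Rit1 +/+ for AdGFP and Rit1 M90I/+ for AdCre. The methods describe cells seeded at about a heart per well after a plating step that removes adherent cells, and the labels give neither the sex nor the litter of the animals. Cells without the engineered locus that received AdCre are not among the samples, so effects of the recombinase and of the variant cannot be told apart. The comparison addresses which transcripts differ once RIT1 M90I is expressed, here among the genes that set repolarization.

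Potassium channels end the cardiac action potential and hold the resting membrane potential. The protein of Kcnq1 assembles with that of Kcne1 to carry the slow delayed rectifier current, and the protein of Kcnh2 carries the rapid one. Inward rectifiers pass potassium near the resting potential, either constitutively (Kcnj2), under muscarinic control through G-protein subunits (Kcnj3 with Kcnj5), or when the ratio of ATP to ADP drops (Kcnj11 with a sulfonylurea receptor). Kcnd2 and Kcnd3 encode pore subunits of the fast transient outward current, which dominates early repolarization in the adult mouse ventricle, and Kcnip2 encodes their calcium-binding accessory protein KChIP.

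Levels are given in FPKM, fragments scaled by exon length and by library size. Whole reads could be worked back from the deposited values, and for 2 kb of exon sequence 1 FPKM was worth 49.3 to 64.1 of them, depending on the sample. Cardiomyocyte markers were abundant, with Myh6 at 758 FPKM and Tnnt2 at 455 FPKM on average in AdGFP. The cultures were nonetheless mixed, since Col1a1, a fibroblast collagen, averaged 1970 FPKM there. Acta2, an actin found in smooth muscle and activated fibroblasts but not only there, averaged 881 FPKM. In RNA from mixed cultures, fewer cells of a type and less RNA per cell cannot be told apart. Samples with the same replicate number deviated together from their group means in each of the 3 pairs, so values within pairs are given beside the groups, and the fit with the replicate number as a block beside the fit without it.

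Levels of the 10 genes differed widely. In AdGFP, Kcnh2 was highest at 24.7 ± 3.92 FPKM (mean ± SD, n = 3), followed by Kcnj5 at 11.8 ± 3.5 FPKM and Kcnq1 at 11.2 ± 1.93 FPKM, whose ranges overlapped each other but not that of Kcnh2. Kcnj11 at 4.52 ± 0.99 FPKM and Kcnj2 at 3.57 ± 0.439 FPKM came next, then Kcnj3 at 1.79 ± 1.18 FPKM and Kcne1 at 1.67 ± 0.431 FPKM. Among these 4 genes each neighbor in the order overlapped the next. Kcnd2 at 0.346 ± 0.183 FPKM, Kcnip2 at 0.134 ± 0.108 FPKM and Kcnd3 at 0.0434 ± 0.011 FPKM formed the low end, with Kcnip2 overlapping both of the others. In AdCre Kcnj5, at 12.6 ± 0.916 FPKM, stood above Kcnq1, at 6.37 ± 1.65 FPKM, with no overlap. Kcne1, at 2.21 ± 0.424 FPKM, came before Kcnj2, at 2.1 ± 0.811 FPKM, whose range it overlapped, and Kcnj3, at 1.02 ± 0.534 FPKM, whose range it did not.

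**Figure D1:**
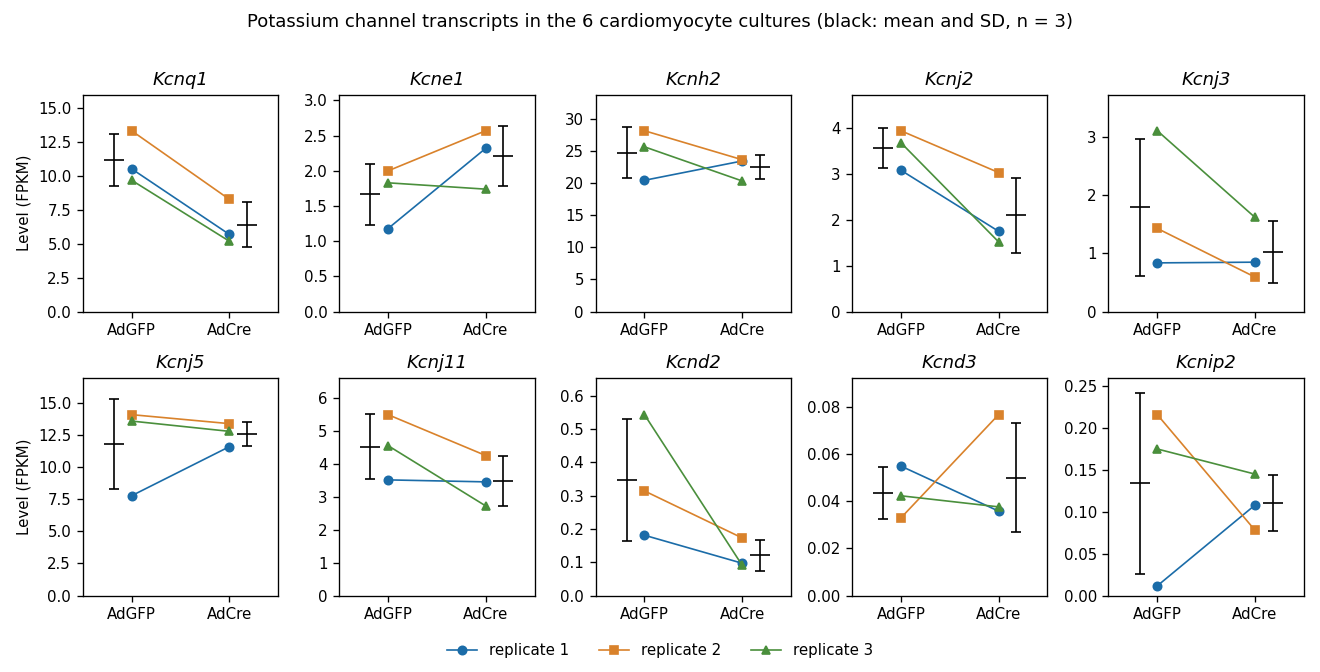
Level of each of the 10 genes in FPKM (vertical axes, from 0) in the 3 AdGFP and 3 AdCre cultures. Lines join samples with the same replicate number, and black bars give the mean and SD (n = 3). The 3 AdCre values of Kcnq1, Kcnj2 and Kcnd2 lie below all 3 AdGFP values, whereas those of the other 7 genes overlap.

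A mean of 0.5 FPKM over the 6 samples, the level needed for testing, was reached by 7 of the 10 genes and by 13794 genes in all. Of these 7, 0 passed at an adjusted p under 0.05 in limma without the block, where 0.00725% of all genes tested passed, and 2 of 7 had an unadjusted p under 0.05, both lower in AdCre, against 10.2% of all genes in either direction and 5.45% as lower. With the block 1 of 7 passed, Kcnq1, where the share over all genes was 6.15%, or 3.51% as lower and 2.64% as higher in AdCre. The calls with the block depended on the settings, since over all genes 0 passed without an intensity trend in the variance, 17 of 28445 without a filter on low values, and 1 without pair 3, against 848 with the trend, the filter and all 3 pairs. The median log2 fold change of the 7, AdCre relative to AdGFP, was -0.37, beside -0.0022 over all genes tested, and it ran from -0.53 without AdGFP replicate 1 to -0.20 without AdGFP replicate 3. Log2 fold changes were below 0 for 5 of the 7, as for 50.4% of all genes. The AdCre samples lay wholly below the AdGFP samples for 2 of the 7, Kcnq1 and Kcnj2, and wholly above them for 0, beside 8.02% and 7.36% of all genes. Kcnq1, Kcnj2 and Kcnj11, 3 of the 7, were lower in AdCre within each of the 3 pairs and 0 were higher in each, beside 24.5% and 23.9% of all genes.

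Upstream sequence is shown for 3 members, Kcnj2 and Kcnd2, 2 of the genes whose groups did not overlap, and Kcnj5, whose groups overlapped. The windows run from 250 bases before the RefSeq transcript start to the base before it, or to the first annotated exon base (RefSeq, GRCm38.p6), and capitals mark matches to the motifs searched. They lie at chr11:111065914-111066163 on the plus strand, chr6:21215096-21215345 on the plus strand and chr9:32344351-32344594 on the minus strand.
Kcnj2: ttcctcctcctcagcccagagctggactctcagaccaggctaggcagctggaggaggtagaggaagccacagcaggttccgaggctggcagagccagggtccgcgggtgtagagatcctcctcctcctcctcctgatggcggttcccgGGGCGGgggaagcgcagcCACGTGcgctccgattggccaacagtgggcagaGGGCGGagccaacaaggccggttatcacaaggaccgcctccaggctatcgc
Kcnd2: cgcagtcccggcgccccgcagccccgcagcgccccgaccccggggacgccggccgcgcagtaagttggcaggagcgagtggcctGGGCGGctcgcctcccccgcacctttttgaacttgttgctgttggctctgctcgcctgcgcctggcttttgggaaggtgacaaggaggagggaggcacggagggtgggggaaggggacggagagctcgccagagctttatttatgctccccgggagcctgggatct
Kcnj5: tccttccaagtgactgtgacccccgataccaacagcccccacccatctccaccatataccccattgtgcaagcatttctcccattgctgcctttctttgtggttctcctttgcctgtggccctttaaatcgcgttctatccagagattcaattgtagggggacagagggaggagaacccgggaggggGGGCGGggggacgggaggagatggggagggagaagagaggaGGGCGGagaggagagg

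The motifs were searched for on both strands of the 250 bases and were the core promoter box TATAAA, the AGATAA site of GATA factors, the MEF2 site, a T-box site (GGTGTGA), an E-box (CACGTG), the cyclic AMP response element (TGACGTCA), the AP-1 site (TGANTCA), an ETS site (CCGGAAGT) and the GC box (GGGCGG). The only matches in these 3 windows were to the GC box, with 2 in Kcnj2, 1 in Kcnd2 and 2 in Kcnj5, and to the E-box, at 1 position in Kcnj2. In Kcnj2 the E-box lies at positions -84 to -79 relative to the RefSeq start, between GC boxes at -102 to -97 and -51 to -46. The GC box occurs in 32.7% of 32851 RefSeq promoter windows of this length and the E-box in 6.02%. The others, in the order above, occur in 12.4%, 9.99%, 2.92%, 3.33%, 1.55%, 6.75% and 2.88% of the windows. The windows held 65.6%, 68.8% and 58% G and C, beside a median of 52.4%. Entries were present for 7 of the 10 members, and those without one were Kcnq1, Kcne1 and Kcnj11. In the windows not shown, Kcnh2 had 3 GC boxes, Kcnip2 had 2, and Kcnj3 and Kcnd3 had no match. Whether any motif bears on the levels was not tested.

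Kcnq1, the pore subunit of the slow delayed rectifier, was lower in AdCre in each pair of cultures. The gene (ENSMUSG00000009545) lies on chromosome 7 from 143106362 to 143427042, plus strand. Its level was 10.5, 13.3 and 9.66 FPKM in AdGFP replicates 1 to 3 and 5.68, 8.26 and 5.18 FPKM in AdCre replicates 1 to 3, on between 587 and 1385 reads per sample. No AdCre sample reached the lowest AdGFP sample, and replicate 2 was the highest of both groups. The mean was 1.75-fold higher in AdGFP. On the log2 scale AdCre minus AdGFP came to -0.82 ± 0.21 (SE), which did not pass in limma without the block (adjusted p 0.3) and passed with it (adjusted p 0.0151, standard error 0.09). The differences within the pairs were -0.87, -0.69 and -0.89 on the log2 scale. The blocked call was lost without a filter on low values (adjusted p 0.0626), without an intensity trend (0.0628), without pair 2 (0.0518) and without pair 3 (0.0882). Kcnq1ot1, an imprinted noncoding transcript read in the opposite direction, overlaps 2.96% of the exon sequence of Kcnq1 and was at no more than 0.0539 FPKM in any sample.

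Kcne1, whose single-pass membrane protein slows the opening of the Kcnq1 channel, had a log2 fold change above 0 that did not pass. The gene (ENSMUSG00000039639, chromosome 16, 92345982 to 92359468, minus strand) had 1.18, 2 and 1.83 FPKM in AdGFP and 2.32, 2.57 and 1.74 FPKM in AdCre, on between 94 and 239 reads. The groups overlapped, and AdCre was the higher sample in pairs 1 and 2 but not in pair 3. The log2 difference of 0.40 ± 0.25 (SE) did not pass in limma (adjusted p 0.673, and 0.313 with the block), and it was 0.18 without AdGFP replicate 1, the lowest of the 6 samples.

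The ratio of Kcnq1 to Kcne1 within a culture does not depend on how libraries were scaled. It was 8.86, 6.67 and 5.28 in AdGFP replicates 1 to 3 and 2.45, 3.22 and 2.97 in AdCre replicates 1 to 3. Every AdCre culture thus had less Kcnq1 per Kcne1 transcript than every AdGFP culture. The mean log2 ratio was 2.76 ± 0.37 in AdGFP and 1.52 ± 0.2 in AdCre (SD, n = 3 each), a difference of -1.25, or 2.37-fold. In the exact two-sided permutation test p was 0.1, below which 3 samples per group cannot go, in a family of 7 such ratios. Within pairs the difference was -1.86, -1.05 and -0.83.

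Kcnh2, the gene of the rapid delayed rectifier, differed between groups by less than the spread between samples. It lies on chromosome 5 from 24319589 to 24351604, minus strand (ENSMUSG00000038319). Its levels were 20.4, 28.1 and 25.6 FPKM in AdGFP and 23.4, 23.6 and 20.3 FPKM in AdCre, on at least 2443 reads per sample, the deepest coverage of the 10 genes. The groups overlapped in part, with AdGFP replicates 2 and 3 above all AdCre samples, and with AdCre the higher sample in pair 1 and the lower one in pairs 2 and 3. A log2 fold change of -0.13 ± 0.15 (SE) did not pass in limma (adjusted p 0.855, and 0.559 with the block). The table gives 1 value per gene, so the long and short transcripts of Kcnh2 were not separated.

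Among the inward rectifiers, Kcnj2, which stabilizes the resting potential, had groups that did not overlap. The gene (ENSMUSG00000041695) occupies chromosome 11 from 111066164 to 111076821, plus strand. It was at 3.08, 3.94 and 3.68 FPKM in AdGFP and at 1.75, 3.03 and 1.52 FPKM in AdCre, on between 230 and 544 reads. All AdCre values were below all AdGFP values, and AdCre replicate 2 came close to AdGFP replicate 1. Its log2 fold change, -0.79 ± 0.26 (SE), did not pass in limma (adjusted p 0.385, and 0.0643 with the block). The differences within pairs were -0.78, -0.37 and -1.22. Among the alternatives, Kcnj2 passed when voom on the recovered reads was combined with the block (adjusted p 0.0226). Of the 6 other tested members, the one nearest to Kcnq1 in profile was Kcnj2, with a root mean square difference of 0.15 between log2 levels centered on each gene over the 6 samples.

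Kcnj12, a related constitutive inward rectifier, averaged 5.07 ± 1.32 FPKM in the control cultures and 4.11 ± 1.35 FPKM with AdCre (n = 3 each), with a log2 fold change of -0.33 (limma adjusted p 0.797). That value was -0.13 without AdGFP replicate 2 and -0.02 without AdCre replicate 3. The ratio of Kcnj2 to Kcnj12 was 0.743, 0.599 and 0.824 in AdGFP and 0.362, 0.615 and 0.599 in AdCre. The groups overlapped at replicate 2, and the difference of the mean log2 ratio was -0.49 (exact two-sided permutation p 0.3).

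Kcnj3 and Kcnj5 encode the subunits of the channel through which acetylcholine hyperpolarizes atrial and pacemaker cells. Kcnj5 (ENSMUSG00000032034, chromosome 9, 32314707 to 32344350, minus strand) was at 7.78, 14.1 and 13.6 FPKM in AdGFP and at 11.6, 13.4 and 12.8 FPKM in AdCre. AdGFP replicate 1 stood below the other 5 samples, and the 3 AdCre values lay between it and the other AdGFP values. The groups differed by 0.14 ± 0.23 (SE) on the log2 scale (limma adjusted p 0.91), and this was -0.13 without that sample. Kcnj3 (ENSMUSG00000026824, chromosome 2, 55435970 to 55598145, plus strand) was at 0.838, 1.43 and 3.11 FPKM in AdGFP and at 0.85, 0.594 and 1.62 FPKM in AdCre, on between 80 and 400 reads. Replicate 3 was the highest of both groups, which overlapped. Kcnj3 had a log2 fold change of -0.67 ± 0.52 (SE; limma adjusted p 0.748, and 0.193 with the block), and it ran from -1.09 without AdGFP replicate 1 to -0.20 without AdGFP replicate 3. Gm26794, read in the opposite direction, overlaps 31.1% of the exon sequence of Kcnj3 and was at no more than 0.0362 FPKM.

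Kcnj3 made up a small share of the pair in all cultures. The ratio of Kcnj3 to Kcnj5 was 0.108, 0.101 and 0.23 in AdGFP and 0.0732, 0.0443 and 0.127 in AdCre, lower in AdCre within each pair (-0.56, -1.19 and -0.86 on the log2 scale). Replicate 3 was the highest of both groups, so the groups overlapped, and the difference of -0.87 had an exact two-sided permutation p of 0.3. Leaving out AdGFP replicate 3 gave -0.49, whereas omitting AdCre replicate 2 or 3 gave -0.50 or -1.25.

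Kcnj11 encodes the pore of the channel that opens when cellular ATP runs low, and it needs a sulfonylurea receptor, Abcc8 or Abcc9, to reach the membrane. The gene (ENSMUSG00000096146) lies on chromosome 7 from 46093953 to 46100764, minus strand. Its levels were 3.51, 5.49 and 4.55 FPKM in AdGFP and 3.45, 4.25 and 2.72 FPKM in AdCre. The groups overlapped, although AdCre was the lower sample in each pair (-0.03, -0.36 and -0.72). On the log2 scale the fold change of Kcnj11 was -0.37 ± 0.23 (SE), which did not pass in limma (adjusted p 0.658, and 0.207 with the block). Abcc9 averaged 11.3 ± 2.17 FPKM in AdGFP and 9.89 ± 2.75 FPKM in AdCre, and Abcc8 averaged 2.03 ± 0.665 and 1.26 ± 0.187 FPKM (n = 3 each). The ratio of Kcnj11 to Abcc9 lay between 0.378 and 0.412 in AdGFP and between 0.305 and 0.443 in AdCre, a difference of -0.17 in log2 ratio with an exact two-sided permutation p of 0.4. Kcnj8, the alternative pore of this channel type and the usual one in vascular muscle, averaged 2.62 ± 0.487 FPKM with AdGFP and 1.9 ± 0.854 FPKM with AdCre (limma adjusted p 0.676). The ratio of Kcnj11 to Kcnj8 overlapped between groups (exact two-sided permutation p 0.8).

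**Figure D2:**
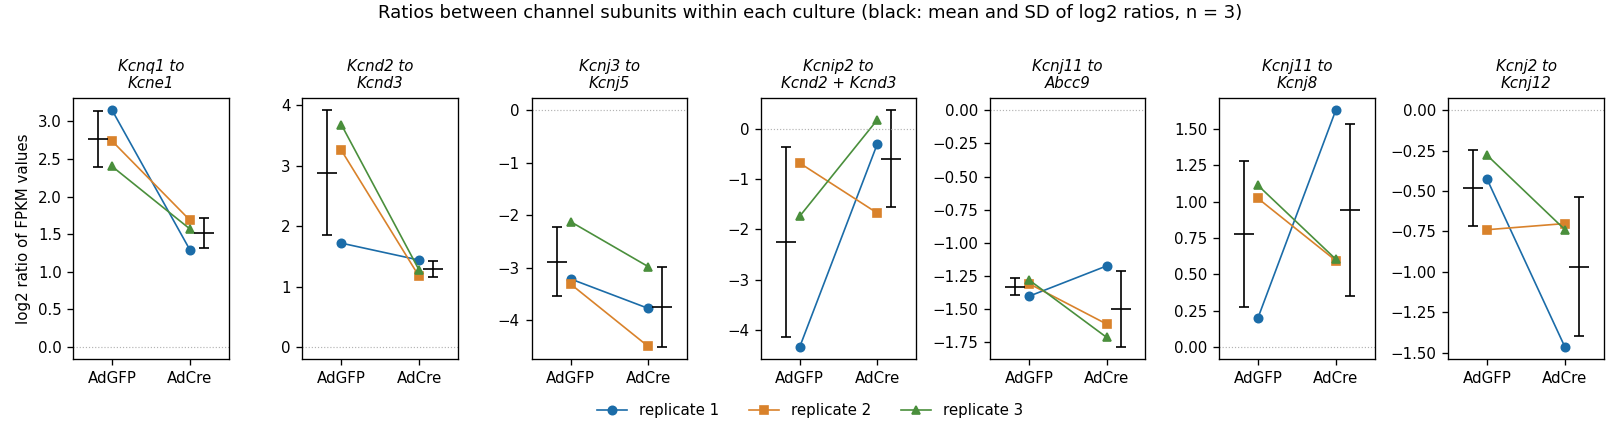
Log2 ratio of FPKM values (vertical axes, 1 range per panel, not all from 0) for 7 pairs of channel subunits in the 3 AdGFP and 3 AdCre cultures. Lines join samples with the same replicate number, black bars give the mean and SD of the log2 ratios (n = 3), and the dotted line marks equal levels where it falls in the range. The ratios of Kcnq1 to Kcne1 and of Kcnd2 to Kcnd3 do not overlap between groups, and the other 5 do. Among single genes tested 15.4% had groups that did not overlap, and no such share was worked out for ratios. Kcnd3 had only 8 to 19 reads per sample.

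The transient outward channel genes were barely expressed, and none of the 3 entered the test. Kcnd2 (ENSMUSG00000060882, chromosome 6, 21215503 to 21729805, plus strand) was at 0.181, 0.314 and 0.543 FPKM in AdGFP, on 23, 41 and 69 reads. In AdCre it was at 0.097, 0.173 and 0.0911 FPKM, on 16, 23 and 13 reads. All 3 AdCre levels were below all 3 AdGFP levels, and the mean was 2.88-fold higher in AdGFP. Tested without a filter on low values, the log2 fold change of -0.95 did not pass (limma adjusted p 0.661, and 0.361 with the block), and this value is reduced by the 0.1 FPKM added before the logarithm. Kcnd3 (ENSMUSG00000040896, chromosome 3, 105452330 to 105674002, plus strand) had between 8 and 19 reads in every sample and averaged 0.0434 and 0.0501 FPKM in AdGFP and AdCre. Kcnip2 (ENSMUSG00000025221, chromosome 19, 45791839 to 45816061, minus strand) had 1, 19 and 15 reads in AdGFP and 12, 7 and 14 in AdCre. Neither differed in a way that could be detected at this depth, with limma adjusted p-values without a filter of 0.946 and 0.991.

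The ratio of Kcnd2 to Kcnd3 was 3.29, 9.54 and 12.8 in AdGFP and 2.71, 2.25 and 2.42 in AdCre. It was lower in every AdCre culture than in every AdGFP culture, by 1.59 on the log2 scale between means of 2.89 ± 1.03 and 1.29 ± 0.13 (SD, n = 3 each), with p = 0.1 in the exact two-sided permutation test, again the smallest possible. With so few Kcnd3 reads a change of a few of them moves this ratio widely. The ratio of Kcnip2 to the sum of Kcnd2 and Kcnd3 ranged from 0.0494 to 0.622 in AdGFP and from 0.312 to 1.13 in AdCre, and the lowest AdGFP value rests on the single Kcnip2 read of AdGFP replicate 1 (exact two-sided permutation p 0.2).

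Levels were also set against cardiomyocyte markers. The geometric mean of 10 markers (Myh6, Myh7, Tnnt2, Tnni3, Actn2, Ryr2, Ttn, Myl3, Atp2a2 and Pln) came to 115 ± 19.5 FPKM with AdGFP and 70.7 ± 22.6 FPKM with AdCre, and its log2 difference was -0.74 (exact two-sided permutation p 0.2), with -0.86, -0.46 and -0.91 within pairs. All 10 had a log2 fold change below 0, with a median of -0.75. Without the block 0 passed and 6 had an unadjusted p under 0.05, beside 10.2% of all genes. With the block 6 passed as lower, beside 3.51% of all genes. With the block and no filter, no trend or no pair 3, 0 markers passed in any of the 10 marker lists described here. Their summed level ranged from 2210 to 2950 FPKM in AdGFP and from 1280 to 2150 FPKM in AdCre.

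Relative to this marker mean, Kcnq1 and Kcnj2 were nearly level between groups, with log2 differences of -0.08 each (exact two-sided permutation p 0.7 and 0.9). Kcnq1 was at 8.59%, 10.2% and 10.3% of the marker mean in AdGFP and at 8.43%, 8.71% and 10.4% in AdCre, and its pair differences were -0.03, -0.23 and 0. The marker mean itself differed by -0.74 and was lower in AdCre within each pair, while the median over all genes tested was -0.0022. A gene at equal levels in both groups therefore stands above 0 on this measure, also within each pair. Kcne1 was higher relative to the markers in every AdCre culture, at 0.97%, 1.53% and 1.96% in AdGFP and 3.44%, 2.71% and 3.49% in AdCre, a difference of 1.16 (exact two-sided permutation p 0.1, the smallest possible). Kcnj5 and Kcnh2 had differences of 0.88 and 0.61 and were higher within each pair, although the groups overlapped (p 0.2 for each in the exact two-sided permutation test). Kcnj11 was at 0.36 and Kcnj3 at 0.01, the latter with pair differences from -0.80 to 0.88. Of the low genes, Kcnd3 was at 0.89 without overlap, Kcnip2 at 1.23 and Kcnd2 at -0.70 with overlap. The Kcnd2 value was -1.15 without AdGFP replicate 1 and -0.16 without AdGFP replicate 3. The Kcnip2 value reversed to -0.17 without AdGFP replicate 1. In all 10 such comparisons were made, and none can go below 0.1 with 3 samples per group. Whether the share of cardiomyocytes contributed to the members' differences was not tested.

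**Figure D3:**
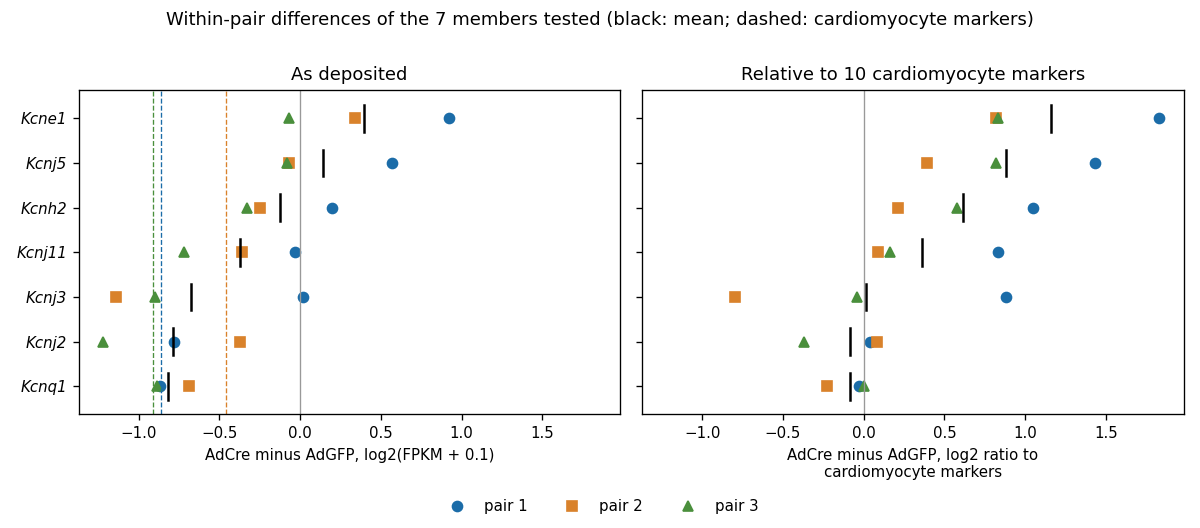
Difference between AdCre and AdGFP within each of the 3 pairs for the 7 members tested, on the log2(FPKM + 0.1) scale (left) and as the log2 ratio to the geometric mean of 10 cardiomyocyte markers (right). Black ticks are means over pairs, and dashed lines on the left are the pair differences of the marker mean, -0.86, -0.46 and -0.91. On the left Kcnq1 lies near the markers and Kcne1 to their right, and on the right Kcnq1 and Kcnj2 center near 0 while Kcne1, Kcnj5, Kcnh2 and Kcnj11 lie above 0 in all 3 pairs. A gene at equal levels in both groups would also lie above 0 on the right, since the marker mean was lower in AdCre.

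Markers of other cells that can carry these channels did not all follow the same course. Of the atrial markers, 5 of 6 tested had a log2 fold change below 0, with a median of -0.34 and a summed level between 2920 and 5110 FPKM in AdGFP and between 2040 and 3700 FPKM in AdCre, most of it Nppa and Myl7. Bmp10, an atrial ligand gene under 0.5 FPKM in all samples and so not tested, averaged 0.128 ± 0.0761 FPKM with AdGFP and 0.358 ± 0.106 FPKM with AdCre (n = 3 each), higher without overlap. The 4 ventricular markers, led by Myl2 and Irx4, had a median of -0.75 and summed to between 197 and 564 FPKM in AdGFP and between 89.4 and 243 FPKM in AdCre. Pacemaker and conduction markers, led by Hcn4 and Cntn2, summed to no more than 8.84 FPKM in any sample, with a median of 0 over 4 genes. Hcn4, the pacemaker channel gene and the most abundant of them, averaged 4.15 ± 1.12 FPKM with AdGFP and 2.5 ± 0.504 FPKM with AdCre, overlapping, with a log2 fold change of -0.69 (limma adjusted p 0.426, and 0.159 with the block), and the other 3 tested lay between -0.04 and 0.05. Smooth muscle and pericyte markers, led by Acta2 and Pdgfrb, had a median of 0.12 over 7 genes and sums of 819 to 1310 FPKM in AdGFP and 975 to 1210 FPKM in AdCre. With the block 3 atrial markers (Myl4, Sln and Nppa) and 2 ventricular markers (Myl2 and Irx4) passed as lower, beside 3.51% of all genes, and 0 pacemaker or smooth muscle markers passed. These calls too were lost with no filter, no trend or no pair 3. The part of any of these in the members' values was not tested.

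The wider set of potassium channel genes was described from a list of 44 further pore, accessory and regulatory genes, of which 28 were tested. The log2 fold change was below 0 for 17 and above 0 for 11, with a median of -0.21. This median rested on single samples, at -0.37 without AdGFP replicate 1, -0.10 without AdGFP replicate 2 or 3, -0.07, -0.42 and -0.14 without AdCre replicates 1, 2 and 3, and it was -0.12 after rescaling to TPM. Without the block 0 of 28 passed and 4 had an unadjusted p under 0.05, beside 10.2% of all genes. With it 2 passed as lower, Kcng2 and Kcna4, beside 3.51% of all genes. In limma with the block neither passed with no filter (adjusted p 0.0626 and 0.12), with no trend (0.0634 and 0.082) or without pair 3 (0.0798 and 0.122), and Kcna4 did not pass without pair 1 (0.0505) or pair 2 (0.0802). Kcng2 (ENSMUSG00000059852, chromosome 18, 80294546 to 80364254) encodes a subunit that forms no channel alone and modifies others. At 48.3 ± 8.78 FPKM in AdGFP it was above all 10 members, and in AdCre it was at 24.9 ± 8.5 FPKM (n = 3 each). Its log2 fold change of -0.99 ± 0.25 (SE) had a limma adjusted p of 0.294, or 0.0144 with the block. D330025C20Rik, read in the opposite direction, overlaps 9.1% of its exon sequence and reached 6.81 FPKM in AdCre replicate 1.

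Kcna4, the pore gene of the slow transient outward current, averaged 2.17 ± 1.06 FPKM with AdGFP and 0.615 ± 0.0724 FPKM with AdCre (n = 3 each), a log2 fold change of -1.58 with a limma adjusted p of 0.241, or 0.0346 with the block. It was thus higher than Kcnd2 and Kcnd3 in both groups. Kcnn4, a calcium-activated channel gene best known from blood cells and proliferating fibroblasts, averaged 0.531 ± 0.238 FPKM with AdGFP and 1.61 ± 0.13 FPKM with AdCre, with no overlap and a log2 fold change of 1.52 (limma adjusted p 0.261, and 0.0509 with the block). Of the other fits with the block it passed with a pseudocount of 1 (adjusted p 0.0418), with a mean of at least 1 FPKM (0.0487), after rescaling to TPM (0.0427) and with voom (0.00659), and in the remaining 8 it did not, with adjusted p-values from 0.0501 to 0.156. Fibroblast markers, led by Col1a1 and Col1a2, had a median of -0.40 over 8 genes (2590 to 4640 FPKM summed in AdGFP, 2270 to 3320 FPKM in AdCre), and 3 passed as lower with the block, Col3a1, Dcn and Lum, beside 3.51% of all genes. Macrophage markers, led by Lyz2 and Cd68, had a median of 0.51 over 6 genes and ranged from 48.9 to 267 FPKM in AdGFP and from 87.1 to 334 FPKM in AdCre. All 6 had a log2 fold change above 0, and 2 passed as higher with the block, Lyz2 and C1qb, beside 2.64% of all genes. Their part in the Kcnn4 value was not tested.

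A list of 10 transcription factor genes linked by earlier knowledge to these channels or to the chambers that use them was tested in full. The log2 fold change was below 0 for 9, with a median of -0.50. Without the block 0 of 10 passed and 5 had an unadjusted p under 0.05, beside 10.2% of all genes. With it 3 passed as lower, beside 3.51% of all genes. They were Irx5, a repressor of Kcnd2 in the inner ventricular wall (7.88 ± 0.96 FPKM in AdGFP, 4.5 ± 0.514 FPKM in AdCre, adjusted p 0.0199 in limma with the block), Nkx2-5, a cardiac homeobox factor (73.3 ± 10.4 and 45.8 ± 10.4 FPKM, 0.0188), and Irx4, a ventricular homeobox factor (5.81 ± 2.31 and 3.73 ± 1.55 FPKM, 0.0312). In limma with the block all 3 calls, in the order Irx5, Nkx2-5 and Irx4, were lost with no filter (adjusted p 0.0788, 0.077 and 0.0963), with no trend (0.068, 0.077 and 0.0803), without pair 2 (0.0801, 0.0593 and 0.141) and without pair 3 (0.0966, 0.0882 and 0.135). Klf15, an activator of Kcnip2 in the adult heart, averaged 0.842 ± 0.234 FPKM with AdGFP and 0.891 ± 0.166 FPKM with AdCre (limma adjusted p 0.963).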

How the data were processed

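RNA from 6 cultures was sequenced. The authors deposited FPKM, 1 column per sample without pooling, from messenger RNA selected on poly-T beads and copied from random hexamers. The submitters' processing notes name fastp, STAR 2.5, HTSeq 0.6.1 and mm10; neither the gene models nor strand use is given in the sources used here. Of 54532 gene identifiers, 54495 matched GENCODE M21, which gave symbols and coordinates.

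Recovered totals were 25.3 to 32.4 M reads per sample. FPKM times exon length fell on whole multiples of 1 step per sample (within 0.05) for between 97.5% and 97.6% of genes under 1000 reads, and for all members, so reads were recovered. The denominators of the deposited values were 0.931 to 0.975 times the recovered totals in AdGFP and 0.988 to 1.03 times in AdCre. How they were set is not given in the sources used here. Relative to the recovered totals, this scaling places AdCre values somewhat lower against AdGFP values. Counts of replicates differed beyond sampling noise (chi-square per degree of freedom between 39.2 and 126), and nothing says whether they came from separate litters. p-values measure the spread between these samples.

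Groups were taken from the labels. Values were tested as log2(FPKM + 0.1), which understates changes of low genes, for genes that averaged 0.5 FPKM or more over the 6 samples, in limma 3.58.1 (R 4.3.3; lmFit, eBayes with an intensity trend) with a term for group and Benjamini-Hochberg adjustment over all genes tested. A gene passes at an adjusted p under 0.05. Ratios were compared by exact two-sided permutation (scipy 1.17.1). The script was tested on simulated data.

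Deviations from group means correlated between same-numbered samples (0.568, 0.268 and 0.506), and between -0.497 and 0.036 otherwise. Each of the 3 was over 0.1, and on these values alone, with no word on pairing in the labels, samples with 1 number were treated as a pair. Over all genes 1 passed without the block and 848 with it, of which 42.9% were higher in AdCre, or 61% after rescaling to TPM and 57.8% with voom. That rescaling moved the median of all genes to 0.0850.

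Named were the members, other potassium channel genes that passed or had the 3 smallest p-values, partners in ratios, the 2 most abundant markers of each list and the closest profiles. Abcc8, Bmp10, the transcription factors named and the markers Myl4, Sln, Col3a1, Dcn, Lum and C1qb, which passed with the block, were chosen after their values were seen. Members and lists were chosen with earlier results of these data known. The listed Kcne5 is named Kcne1l in GENCODE M21. No member had more than 0.13% of its 50-base transcript words in common with other genes. Alternatives were other pseudocounts, filters, scalings, no trend, voom on recovered reads, the block and leaving out samples or pairs.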

Additional observations from a re-analysis of the deposited data

How the results depend on the processing

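The number of members that passed was 0 without the block in all fits, the fits leaving out a sample included, and the median of the 7 members stayed within -0.54 and -0.19. With the replicate block 1 member passed, also with pseudocounts of 1 or 0.01, with a mean of at least 1 FPKM, after rescaling to TPM, after median centring and after quantile normalization, and 2 passed with voom on recovered reads (Kcnq1 and Kcnj2) or without pair 1 (Kcnq1 and Kcnj3). Over all 13794 genes 848 passed with the block. With the block, 784 passed with a pseudocount of 1, 782 with 0.01 and 922 of 12197 with a mean of at least 1 FPKM. After rescaling to TPM, median centring and quantile normalization, also with the block, the counts were 875, 778 and 762. They were 1706 with the block and voom, 772 without pair 1 and 149 without pair 2. Without the block no fit had more than 4 genes passing over all genes. Of the other potassium channel genes, 2 passed with the block, 3 with a pseudocount of 1, 2 with 0.01, 3 with a mean of at least 1 FPKM, 4 after rescaling to TPM, 2 after median centring, 2 after quantile normalization, 8 with voom, 2 without pair 1 and 1 without pair 2. In the 10 marker lists 18 genes passed with the block, and in the same order 16, 17, 20, 16, 17, 16, 29, 19 and 6. With the block and no filter, no trend or no pair 3, 0 members, 0 other potassium channel genes and 0 markers passed, and without pair 2 0 members passed. Over all genes 17 of 28445 passed with no filter, 0 with no trend, 1 without pair 3 and 149 without pair 2. Combining the block with another pseudocount, filter, trend setting or quantile normalization was chosen after seeing the data. The causes were not tested, beyond the smaller number of samples without a pair.

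Kcnj5 reversed to -0.13 without AdGFP replicate 1 and to -0.08 with the block and without pair 1. Its values leaving out a sample ran from -0.13 to 0.29. Leaving out a sample, the ratio of Kcnj11 to Kcnj8 ran from -0.17 to 0.34. Relative to cardiomyocyte markers Kcnd2 ran from -1.15 to -0.16, Kcnj2 from -0.23 to 0.09, Kcnj3 from -0.61 to 0.66 and Kcnip2 from -0.17 to 1.98. Against Tnnt2, Actn2 and Ryr2 alone, both Kcnq1 and Kcnj2 were at 0.09. The differences in Kcnq1 to Kcne1 and Kcnd2 to Kcnd3 kept their sign, from -1.43 to -1.05 and from -2.17 to -1.19, leaving out each sample. So did Kcnj3 to Kcnj5 (-1.25 to -0.49), Kcnj2 to Kcnj12 (-0.62 to -0.24), Kcnj11 to Abcc9 (-0.33 to -0.06) and Kcnip2 to Kcnd2 plus Kcnd3 (0.61 to 2.44), and, as log2 fold changes, Kcnh2 (-0.26 to -0.03), Kcnj11 (-0.53 to -0.21), Kcnj12 (-0.48 to -0.02), Kcnj8 (-0.83 to -0.20) and Abcc9 (-0.42 to -0.05). Relative to the markers Kcnj5 ran from 0.56 to 1.15 and Kcnj11 from 0.15 to 0.52. Depth limits Kcnd2, Kcnd3 and Kcnip2, which had at most 69 reads in a sample.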

Other observations

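The average profile of the 7 members tested, each centered on its own mean log2 level, stood at -0.22, 0.36 and 0.35 in AdGFP replicates 1 to 3 and at -0.22, -0.01 and -0.26 in AdCre replicates 1 to 3. AdGFP replicate 1 therefore lay at the level of the AdCre samples. Over the 6 samples the genes outside the list with the smallest root mean square difference from this profile were Cacfd1 (0.048), Dtx3 (0.051) and Zfp46 (0.052), out of 13794 genes tested. Among the members themselves the nearest neighbor of Kcnh2 was Kcnj11 (0.179) and that of Kcne1 was Kcnj5 (0.22), while Kcnj3 lay farthest from any other (0.67 from Kcnj5).

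The 7 endothelial markers, led by Cdh5 and Egfl7, had log2 fold changes above 0 (median 0.35), of which 0 passed without the block and 2, Cdh5 and Egfl7, passed as higher with it (limma adjusted p 0.0365 and 0.0458), beside 2.64% of all genes. Without a filter neither passed with the block (0.0928 and 0.129). They summed to between 37.4 and 68.5 FPKM in AdGFP and between 51.1 and 91 FPKM in AdCre. Epicardial markers, led by Krt19 and Msln, had a median of -0.38 over 5 genes, and none passed. Of the 5 neuron and glia markers, led by Dbh and Th, 3 were tested and none passed.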
